A study of Mus musculus with 3 samples.

Results

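Most of the 36 genes described here act on collagen after its chains have been translated: they hydroxylate, fold, export, trim or crosslink it. The 36 also include the KDEL receptors Kdelr2 and Kdelr3 and the transcription factors Creb3l1 and Creb3l2. All were chosen by name from what their products do, with earlier results of these data known. All 36 were found among the 23284 gene symbols that each deposited file lists. RNA-seq was available from 3 sorted populations of mouse embryonic digit cells, 1 library for each. Lgr5+ cells, called interzone cells by the submitters, and Lgr5- cells, called non-interzone, were both taken from forelimb digits at stage E14.5, counted in days of embryonic life. Both carried 1 Lgr5-eGFPCreERT2 allele beside a normal one, so the Lgr5- cells differ from the Lgr5+ cells by their lack of reporter signal in the sort and not by genotype. Sox9+ cells were taken at E13.5 from digits of Sox9-eGFP/+ embryos, and the limb is not stated for them. The strain given for all 3 is C57/bl6, no treatment is named, and the sources used here do not give how many embryos were pooled. The Sox9+ library thus differs from the other libraries in stage, reporter line and sort, and these cannot be told apart.

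Collagen chains enter the endoplasmic reticulum (ER), where selected prolines and lysines are hydroxylated, chains are joined by disulfide bonds, and trimers wind into a triple helix under the care of chaperones. Procollagen leaves in COPII-coated carriers, its propeptides are cut off outside the cell, and lysyl oxidases then convert lysines and hydroxylysines so that neighbouring molecules become covalently joined. In the developing digit, cartilage cells make collagens of types II, IX and XI, while perichondrium, tendon and other connective tissue make mainly types I, III and V.

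Values are FPKM, in which fragment numbers are divided by the length of the transcript and by the size of the library, so levels of different genes within a library can be set side by side. A difference is the log2 ratio of FPKM + 1, a fold is the ratio of FPKM + 1, and a gene counts as measured in a pair of libraries at 1 FPKM or more in the higher one. "Higher" and "lower" by 2-fold or more are called from that ratio alone. No group had a replicate, so no error, p-value or replicate check could be given, and each comparison is between libraries. The values are from sorted bulk cells, in which fewer cells of a type and less RNA per cell cannot be told apart. As a check of the labels, Lgr5 stood at 26.8 FPKM in Lgr5+ cells, 1.36 FPKM in Lgr5- cells and 3.48 FPKM in Sox9+ cells. Sox9, a factor that cartilage cells need, stood at 332 FPKM in Lgr5+ cells, 147.1 FPKM in Lgr5- cells and 255 FPKM in Sox9+ cells, so its level was not highest in the cells sorted by its reporter.

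Across the 36 genes, in the values as deposited, the Lgr5- library was the low one and the Sox9+ library the high one. In 25 of the 36 genes the Lgr5- library held the lowest of the 3 values, against 35.9% of all genes at 1 FPKM or more in any library. The Sox9+ library held the highest value in 25 of the 36 genes, against 34.3% of all genes. For 20 genes both held, against 19.9% of all genes. Only the first of these counts was repeated under other scalings. When rescaled to TPM, P4hb, Plod1, Plod2, Sec23a, Sec31a, Loxl2 and Loxl3 became higher in Lgr5+ than in Sox9+ cells. The counts for the Sox9+ library thus depend on the scaling. The Lgr5+ library held the highest value in 6 genes and the lowest in 6, against 39% and 24.1% of all genes. Lox and Loxl1, 2 of the 5 lysyl oxidases, ran the other way, with the highest value in Lgr5- cells and the lowest in Sox9+ cells. Bmp1 and Pcolce had the same order with differences under 2-fold. Of the 36 genes, 5 had their highest value in Lgr5- cells, against 26.6% of all genes, and 5 their lowest in Sox9+ cells, against 39.4%. The genes were well expressed: 35 of 36 were at 1 FPKM or more in all 3 libraries, 29 at 10 FPKM or more, and 9 at 100 FPKM or more, and none was listed at 0. Their summed level was 4420 FPKM in Lgr5+ cells, 3497 FPKM in Lgr5- cells and 5467 FPKM in Sox9+ cells, which was 0.828%, 0.639% and 0.921% of each library's total FPKM in the same order.

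**Figure D1:**
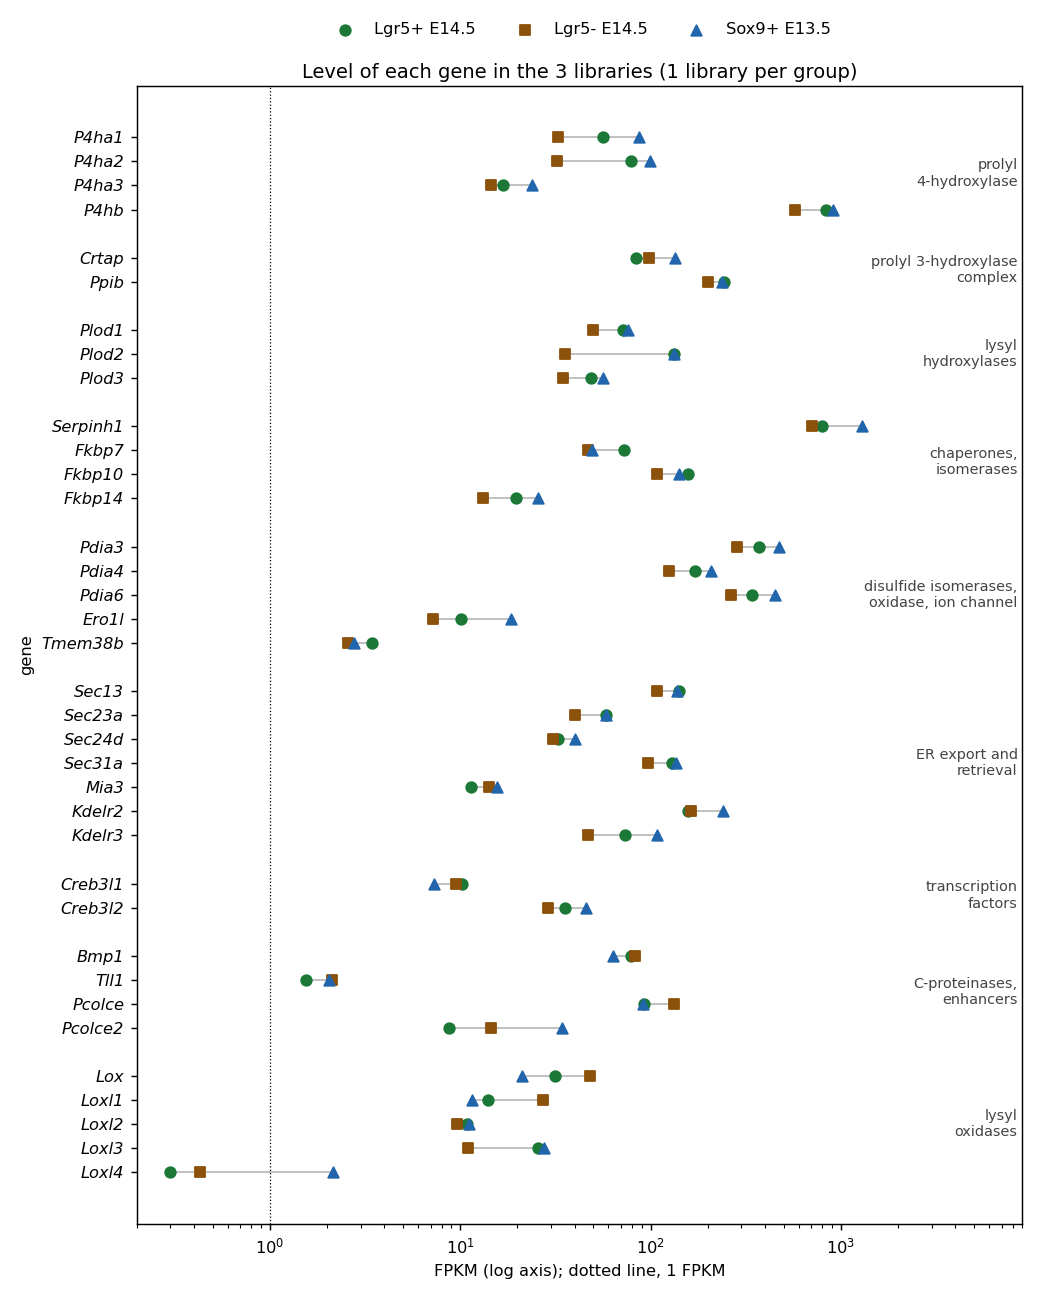
FPKM on a log axis for each of the 36 genes, grouped by role, with 1 point for each of the Lgr5+ E14.5, Lgr5- E14.5 and Sox9+ E13.5 libraries. The Lgr5- point is the leftmost in 25 genes, whereas for Lox, Loxl1, Bmp1, Tll1 and Pcolce it is the rightmost.

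Promoter stretches are shown for 4 of the genes that were at least 2-fold lower in Lgr5- cells than in Sox9+ cells. Of these, 3 (P4ha1, P4ha2 and Ero1l) are known to respond to low oxygen through short hypoxia-response sequences, and Kdelr3 holds the core of an unfolded-protein-response element. Pdia6 is shown as the only matched gene with a full ER stress element. Sequences are from RefSeq (GRCm38.p6) and run 5′ to 3′ on the gene's own strand from up to 250 bases before the RefSeq start site. Where part of that window is annotated as exon, only the longest stretch outside exons is shown. In the first 4, capitals mark ACGTG or GCGTG, the core of the hypoxia-response sequence, on either strand, so that a match on the opposite strand reads CACGT or CACGC. In the last, capitals mark the ER stress element, CCAAT followed by 9 bases of any kind and then CCACG.
P4ha1 (chr10:59323046-59323295, plus strand): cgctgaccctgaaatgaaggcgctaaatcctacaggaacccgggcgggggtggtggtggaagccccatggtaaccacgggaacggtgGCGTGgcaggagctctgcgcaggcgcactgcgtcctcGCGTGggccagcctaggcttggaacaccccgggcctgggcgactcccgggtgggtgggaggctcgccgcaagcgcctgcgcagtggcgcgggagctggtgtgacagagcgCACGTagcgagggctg
P4ha2 (chr11:54100674-54100923, plus strand): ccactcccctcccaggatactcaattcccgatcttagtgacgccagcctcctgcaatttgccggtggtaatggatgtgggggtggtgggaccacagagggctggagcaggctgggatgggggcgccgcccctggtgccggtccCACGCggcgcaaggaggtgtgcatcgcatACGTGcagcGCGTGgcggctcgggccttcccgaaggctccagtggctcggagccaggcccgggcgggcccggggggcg
Ero1l (chr14:45318573-45318702, minus strand): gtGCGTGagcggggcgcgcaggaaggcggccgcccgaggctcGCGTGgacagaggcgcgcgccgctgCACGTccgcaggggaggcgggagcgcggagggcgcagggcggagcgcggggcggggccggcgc
Kdelr3 (chr15:79516158-79516407, plus strand): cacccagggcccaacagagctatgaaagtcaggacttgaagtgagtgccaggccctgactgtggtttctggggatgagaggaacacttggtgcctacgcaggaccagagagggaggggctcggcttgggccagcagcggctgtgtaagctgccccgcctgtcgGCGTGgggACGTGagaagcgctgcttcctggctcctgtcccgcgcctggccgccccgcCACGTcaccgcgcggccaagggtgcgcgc
Pdia6 (chr12:17266339-17266544, plus strand): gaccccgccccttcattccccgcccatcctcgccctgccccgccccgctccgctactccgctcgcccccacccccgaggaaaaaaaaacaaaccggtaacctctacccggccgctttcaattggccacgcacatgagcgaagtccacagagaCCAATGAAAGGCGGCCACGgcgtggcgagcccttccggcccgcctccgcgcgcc

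Each of the first 4 windows held 3 hypoxia cores. The other matched genes that were 2-fold lower in Lgr5- than in Sox9+ cells held fewer, with none for Pcolce2 and 1 for Loxl4, while genes within 2-fold held as many or more, with 4 for Plod3, 4 for Ppib, 3 for Crtap and 3 for Pdia6. The number of cores thus does not separate the genes that were called from the others. In P4ha1 they begin 163, 126 and 16 bases before the start site, in P4ha2 107, 78 and 69, in Ero1l (Ero1a in RefSeq) 128, 88 and 63, and in Kdelr3 87, 79 and 29. The ER stress element of Pdia6 begins 98 bases before its start site. Of the stretches shown, 2 lie inside the annotated gene and not before it. The P4ha2 window is in an intron of 1 longer transcript, and the Ero1l stretch lies just after an annotated Ero1l exon. The 69 window bases in that exon were left out, as were the window bases before the exon. RefSeq windows were matched for 26 of the 36 genes (28 windows), all but Bmp1, Creb3l1, Fkbp10, Kdelr2, Lox, Loxl1, Loxl2, Loxl3, Plod2 and Tmem38b. Of the 28 windows 19 held either hypoxia core, against 38.6% of all 32851 windows of the same length. The ER stress element was in 1 of the 28, against 0.113% of all windows. The core TGACGTG of the unfolded-protein-response element, which contains ACGTG, was found upstream of Kdelr3, Mia3 and Sec24d, against 1.65% of all windows. The CCACG end of the ER stress element alone, whose reverse strand can overlap either hypoxia core, was in 14 of 28 windows, against 28.3% of all. The matched windows were richer in G and C, with a median of 64.6%, against 52.4% over all windows, which bears on motifs that contain CG. A match describes letters in this window and not a bound site.

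Lgr5+ cells were compared with Lgr5- cells, which share their stage and reporter allele, to ask what sets cells labelled as interzone apart from the other digit cells. Among 35 measured, 3 passed 2-fold with the higher value in Lgr5+ cells, a share of 8.57% against 3.64% of all 12438 genes measured, and none was 2-fold lower, against 1.89%. The 3 were the lysyl hydroxylase Plod2 (log2 ratio 1.87), the prolyl hydroxylase subunit P4ha2 (1.26) and the lysyl oxidase Loxl3 (1.15). Smaller differences leaned the same way: 26 of the 35 were above zero, against 59.4% of all genes, and the median log2 ratio was 0.36, against 0.08 over all genes.

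Lgr5+ cells at E14.5 were also set against Sox9+ cells of the day before. Within 2-fold lay 34 of the 36 genes, as did 11456 of all 12492 genes measured. None was 2-fold higher in Lgr5+ cells, against 4.33% of all genes measured, and 2 were 2-fold lower (Pcolce2 and Loxl4), a share of 5.56% against 3.96% of all genes. After rescaling to TPM the shares over all genes were 7.32% higher and 3.98% lower. The median log2 ratio was -0.23, against 0.06 over all genes, and 26 of 36 were below zero, against 44.3%.

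The third pair, Lgr5- cells at E14.5 against Sox9+ cells at E13.5, showed the widest differences. In the Lgr5- library 8 of 36 genes were at least 2-fold lower, a share of 22.2% against 4.94% of all 12482 genes measured: P4ha1, P4ha2, Plod2, Ero1l, Kdelr3, Pcolce2, Loxl3 and Loxl4. Lox and Loxl1 were at least 2-fold higher, a share of 5.56% against 3.08% of all genes. After rescaling to TPM the shares over all genes were 4.81% lower and 5.27% higher. The median log2 ratio of the 36 genes was -0.58, against -0.01 over all genes, and 30 of 36 were below zero, against 50.5% of all genes. This pair and the pair before it share the Sox9+ library, the first 2 pairs share the Lgr5+ library, and this pair shares the Lgr5- library with the first.

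**Figure D2:**
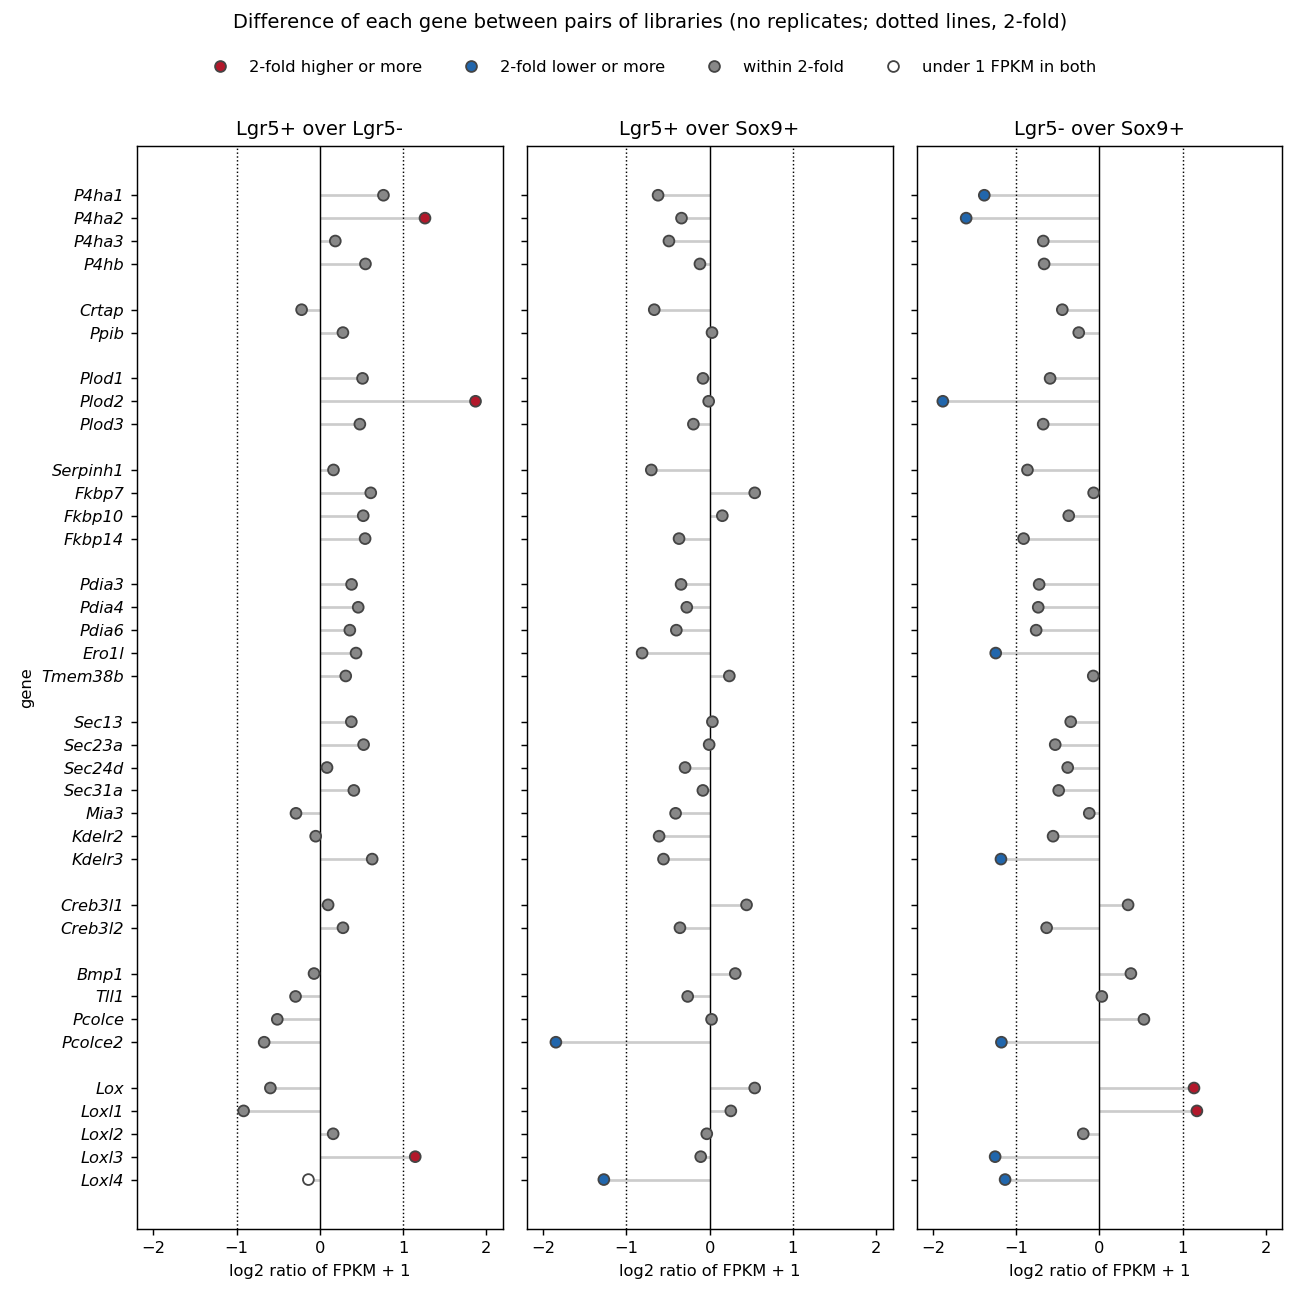
Log2 ratio of FPKM + 1 for each gene in the pairs Lgr5+ over Lgr5-, Lgr5+ over Sox9+ and Lgr5- over Sox9+, with dotted lines at 2-fold and 1 library per group. Filled red points are 2-fold higher or more, blue points 2-fold lower or more, and the open point (Loxl4) is under 1 FPKM in both libraries. Plod2 reaches 1.87 in the first pair and -1.88 in the third.

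Prolyl 4-hydroxylase makes the hydroxyproline that keeps the triple helix stable at body temperature. It is built from a catalytic alpha subunit (P4ha1, P4ha2 or P4ha3) and the beta subunit P4hb, which is also protein disulfide isomerase. P4ha2, reported as the main alpha form of chondrocytes (chromosome 11, 54100095 to 54131665), stood at 78.7 FPKM in Lgr5+ cells, 32.2 FPKM in Lgr5- cells and 99.7 FPKM in Sox9+ cells. It was 2.4-fold higher in Lgr5+ than in Lgr5- cells and 3.04-fold lower in Lgr5- than in Sox9+ cells. P4ha1, the widely expressed form (chromosome 10, 59323296 to 59373304), stood at 56.3 FPKM in Lgr5+ cells, 32.7 FPKM in Lgr5- cells and 87.1 FPKM in Sox9+ cells, and its 2.61-fold lower level in Lgr5- than in Sox9+ cells also passed 2-fold. P4ha3 was the lowest of the family, at 16.7 FPKM in Lgr5+ cells, 14.6 FPKM in Lgr5- cells and 23.8 FPKM in Sox9+ cells. P4hb was at 836 FPKM in Lgr5+ cells, 572 FPKM in Lgr5- cells and 907 FPKM in Sox9+ cells, within 2-fold in every pair. For each FPKM of the 3 alpha subunits together, P4hb had 5.51 FPKM in Lgr5+ cells, 7.19 in Lgr5- cells and 4.31 in Sox9+ cells. In Lgr5+ over Lgr5- the log2 ratio was 0.55 for P4hb, against 1.26 for P4ha2, 0.76 for P4ha1 and 0.19 for P4ha3.

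The prolyl 3-hydroxylase complex modifies single prolines of the helix, and its members Crtap, the scaffold, and Ppib, the isomerase cyclophilin B, are mutated in forms of brittle bone disease in humans. Crtap stood at 83.9 FPKM in Lgr5+ cells, 97.8 FPKM in Lgr5- cells and 133.7 FPKM in Sox9+ cells. Ppib was at 243 FPKM in Lgr5+ cells, 200.1 FPKM in Lgr5- cells and 238 FPKM in Sox9+ cells. Neither reached 2-fold in any pair. A limit applies to Ppib, because 825 of its 3305 annotated exon bases overlap those of Snx22 on the opposite strand and kits of this type do not mark the strand; Snx22 stood at 43.6, 34.6 and 42.8 FPKM in the Lgr5+, Lgr5- and Sox9+ libraries.

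Lysyl hydroxylases set which lysines can later carry sugars and which kind of crosslink forms. Plod2 acts on the telopeptides, the short ends outside the helix, and so decides between crosslink types, whereas Plod1 acts on the helix and Plod3 also adds glucose to hydroxylysine. Plod2 (chromosome 9, 92542223 to 92608428) had 2 of the largest ratios of the 36 genes, close to that of Pcolce2 in Lgr5+ over Sox9+, and which of the 2 genes came first changed with the scaling and pseudocount. It stood at 132.5 FPKM in Lgr5+ cells, 35.5 FPKM in Lgr5- cells and 133.6 FPKM in Sox9+ cells. The Lgr5+ and Sox9+ values were nearly equal. Plod2 was 3.66-fold higher in Lgr5+ than in Lgr5- cells and 3.69-fold lower in Lgr5- than in Sox9+ cells. Of its 5392 exon bases, 346 overlap Gm38391 on the opposite strand, which was not analysed here. Plod1 stood at 71.9 FPKM in Lgr5+ cells, 50.0 FPKM in Lgr5- cells and 76.0 FPKM in Sox9+ cells. Plod3 stood at 48.9 FPKM in Lgr5+ cells, 34.8 FPKM in Lgr5- cells and 56.2 FPKM in Sox9+ cells. Both lay within 2-fold throughout. Plod2 made up 52.3% of the family's summed FPKM in Lgr5+ cells, 29.5% in Lgr5- cells and 50.3% in Sox9+ cells, so the leading lysyl hydroxylase was Plod2 in the Lgr5+ and Sox9+ libraries and Plod1, at 41.6%, in Lgr5- cells. Plod3 shares 529 of its 4519 exon bases with Znhit1, which stood at 33.2, 30.2 and 25.0 FPKM in the Lgr5+, Lgr5- and Sox9+ libraries.

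**Figure D3:**
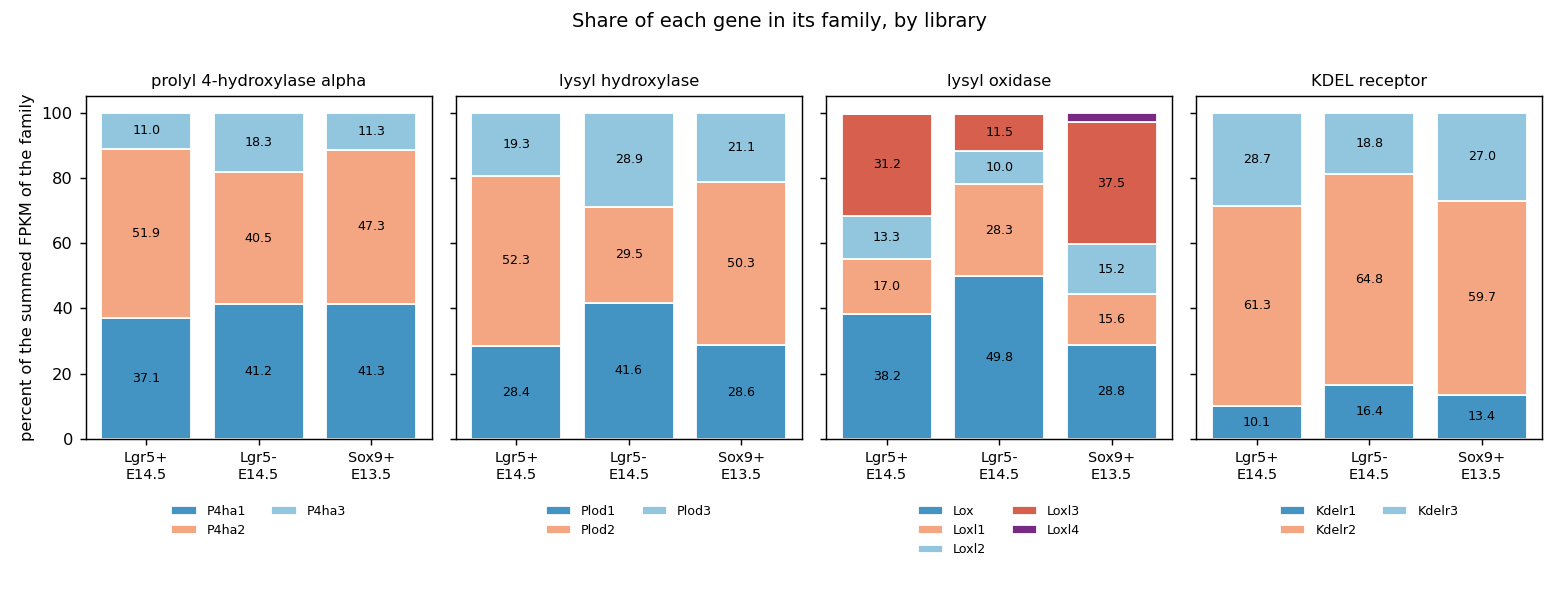
Stacked bars give the percent of each family's summed FPKM held by each gene in the Lgr5+ E14.5, Lgr5- E14.5 and Sox9+ E13.5 libraries, for the prolyl 4-hydroxylase alpha subunits, the lysyl hydroxylases, the lysyl oxidases and the KDEL receptors. Plod2 holds 52.3%, 29.5% and 50.3% from left to right, and Loxl3 31.2%, 11.5% and 37.5%.

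Among the chaperones, Serpinh1 (HSP47), which binds the folded procollagen helix, was the most abundant gene of the 36 in the Lgr5- and Sox9+ libraries. It stood at 792 FPKM in Lgr5+ cells, 707 FPKM in Lgr5- cells and 1289 FPKM in Sox9+ cells, and was 1.63-fold lower in Lgr5+ and 1.82-fold lower in Lgr5- than in Sox9+ cells. Unlike Plod2, its value therefore lay closer between both E14.5 libraries than between either of them and the Sox9+ library. The other members of this group are FK506-binding proline isomerases of the ER. Fkbp10 (FKBP65), a partner of telopeptide lysyl hydroxylation, was at 156.6 FPKM in Lgr5+ cells, 108.8 FPKM in Lgr5- cells and 140.9 FPKM in Sox9+ cells. Fkbp7 was 1 of 6 genes with its highest value in Lgr5+ cells, at 72.2 FPKM, against 46.9 FPKM in Lgr5- cells and 49.2 FPKM in Sox9+ cells. Fkbp14 stood at 19.7 FPKM in Lgr5+ cells, 13.2 FPKM in Lgr5- cells and 25.7 FPKM in Sox9+ cells. These 4 genes lay within 2-fold in every pair, and all 4 were higher in Lgr5+ than in Lgr5- cells, by 1.12-fold to 1.53-fold.

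Disulfide isomerases join the propeptides of the chains and serve many other secreted proteins. Pdia3 (ERp57) stood at 371 FPKM in Lgr5+ cells, 285 FPKM in Lgr5- cells and 471 FPKM in Sox9+ cells. Pdia6 stood at 341 FPKM in Lgr5+ cells, 266 FPKM in Lgr5- cells and 451 FPKM in Sox9+ cells. Pdia4 (ERp72) stood at 171.9 FPKM in Lgr5+ cells, 124.6 FPKM in Lgr5- cells and 208 FPKM in Sox9+ cells. These 3 moved side by side, with log2 ratios between 0.36 and 0.46 in Lgr5+ over Lgr5- and between -0.76 and -0.73 in Lgr5- over Sox9+. Ero1l, which reoxidises protein disulfide isomerase (chromosome 14, 45283087 to 45318771), was much lower but more variable, at 10.1 FPKM in Lgr5+ cells, 7.18 FPKM in Lgr5- cells and 18.4 FPKM in Sox9+ cells. It was 2.37-fold lower in Lgr5- than in Sox9+ cells and 1.76-fold lower in Lgr5+ than in Sox9+ cells. Tmem38b, an ER potassium channel needed for collagen release in bone, was low and close in all 3, at 3.43 FPKM in Lgr5+ cells, 2.57 FPKM in Lgr5- cells and 2.76 FPKM in Sox9+ cells.

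Of 7 genes of the export and retrieval route, 6 lay within 2-fold in every pair, and Kdelr3 did not. The outer COPII coat genes Sec13 (141.3, 108.5 and 138.1 FPKM in the Lgr5+, Lgr5- and Sox9+ libraries) and Sec31a (129.3, 97.1 and 136.8 FPKM) were the more abundant of the coat. The inner coat gene Sec23a stood at 58.4 FPKM in Lgr5+ cells, 40.3 FPKM in Lgr5- cells and 58.7 FPKM in Sox9+ cells. Its partner Sec24d stood at 32.5 FPKM in Lgr5+ cells, 30.6 FPKM in Lgr5- cells and 40.1 FPKM in Sox9+ cells. Mia3 (TANGO1), which loads procollagen into carriers, was the lowest of the route, at 11.5 FPKM in Lgr5+ cells, 14.2 FPKM in Lgr5- cells and 15.6 FPKM in Sox9+ cells. It was 1 of 6 genes with the lowest value in Lgr5+ cells. The KDEL receptors return chaperones that escape to the Golgi. Kdelr3 (chromosome 15, 79516411 to 79527739) stood at 73.5 FPKM in Lgr5+ cells, 47.1 FPKM in Lgr5- cells and 108.4 FPKM in Sox9+ cells, 2.27-fold lower in Lgr5- than in Sox9+ cells. Kdelr2 stood at 157.1 FPKM in Lgr5+ cells, 162.7 FPKM in Lgr5- cells and 239.9 FPKM in Sox9+ cells, so its E14.5 values were nearly equal. With Kdelr1 counted in, Kdelr3 held 28.7% of the receptors' FPKM in Lgr5+ cells, 18.8% in Lgr5- cells and 27.0% in Sox9+ cells.

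The transcription factors Creb3l1 (OASIS), an activator of type I collagen in bone cells, and Creb3l2 (BBF2H7), an activator of Sec23a in cartilage, are released from the ER membrane by cleavage. Creb3l2 stood at 35.3 FPKM in Lgr5+ cells, 29.0 FPKM in Lgr5- cells and 45.5 FPKM in Sox9+ cells. Creb3l1 stood at 10.3 FPKM in Lgr5+ cells, 9.51 FPKM in Lgr5- cells and 7.28 FPKM in Sox9+ cells. Creb3l1 was lowest where Creb3l2 was highest, and its share of the pair was 22.5% in Lgr5+ cells, 24.7% in Lgr5- cells and 13.8% in Sox9+ cells, although every difference was under 2-fold.

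Outside the cell, Bmp1 and Tll1 cut off the C-propeptides of fibrillar procollagens and Pcolce and Pcolce2 speed this cut. Both proteinases lay within 2-fold, with Bmp1 at 79.2 FPKM in Lgr5+ cells, 83.2 FPKM in Lgr5- cells and 63.8 FPKM in Sox9+ cells. Tll1 was low, at 1.54 FPKM in Lgr5+ cells, 2.11 FPKM in Lgr5- cells and 2.05 FPKM in Sox9+ cells. The enhancers differed from each other. Pcolce stood at 92.5 FPKM in Lgr5+ cells, 132.3 FPKM in Lgr5- cells and 91.1 FPKM in Sox9+ cells. Pcolce2 stood at 8.77 FPKM in Lgr5+ cells and 14.54 FPKM in Lgr5- cells, against 34.2 FPKM in Sox9+ cells. It was 3.6-fold lower in Lgr5+ and 2.26-fold lower in Lgr5- than in Sox9+ cells, and was the only 1 of the 36 genes at 10 FPKM or more in the higher library that differed by 2-fold between the Lgr5+ and Sox9+ libraries. All 4 genes of this group were lower in Lgr5+ than in Lgr5- cells, by 1.05-fold to 1.59-fold, in contrast to the disulfide isomerases and hydroxylases.

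Lysyl oxidases start the covalent crosslinks, and their family differed in makeup rather than in sum. The 5 genes together had 82.1 FPKM in Lgr5+ cells, 96.2 FPKM in Lgr5- cells and 73.8 FPKM in Sox9+ cells. Lox, the founding member and main crosslinker of collagen, stood at 31.4 FPKM in Lgr5+ cells, 47.9 FPKM in Lgr5- cells and 21.2 FPKM in Sox9+ cells, 2.2-fold higher in Lgr5- than in Sox9+ cells. Loxl1, best known for elastic fibres, stood at 14.0 FPKM in Lgr5+ cells, 27.2 FPKM in Lgr5- cells and 11.5 FPKM in Sox9+ cells, 2.25-fold higher in Lgr5- than in Sox9+ cells and 1.89-fold lower in Lgr5+ than in Lgr5- cells. Loxl3, whose loss causes cleft palate and spinal defects in mice (chromosome 6, 83034173 to 83052562), had the opposite pattern. It stood at 25.6 FPKM in Lgr5+ cells, 11.0 FPKM in Lgr5- cells and 27.7 FPKM in Sox9+ cells, 2.21-fold higher in Lgr5+ than in Lgr5- cells and 2.39-fold lower in Lgr5- than in Sox9+ cells. Lox held 38.2% of the family in Lgr5+ cells, 49.8% in Lgr5- cells and 28.8% in Sox9+ cells, where Loxl3 led with 37.5%. Loxl2 was nearly even, at 10.9 FPKM in Lgr5+ cells, 9.64 FPKM in Lgr5- cells and 11.2 FPKM in Sox9+ cells. Loxl4 was near the floor, at 0.3 FPKM in Lgr5+ cells, 0.43 FPKM in Lgr5- cells and 2.14 FPKM in Sox9+ cells, and its 2-fold calls rest on values of this size. Loxl3 shares 535 of its 4603 exon bases with Htra2 on the opposite strand, and Htra2 stood at 30.8, 24.3 and 30.7 FPKM in the Lgr5+, Lgr5- and Sox9+ libraries, within 2-fold in every pair.

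The collagen chains that these enzymes act on also differed between the libraries. The 6 chains of cartilage collagens (types II, IX and XI) summed to 3839 FPKM in Lgr5+ cells, 2245 FPKM in Lgr5- cells and 8435 FPKM in Sox9+ cells. The 5 chains of types I, III and V summed to 2073 FPKM in Lgr5+ cells, 2019 FPKM in Lgr5- cells and 1529 FPKM in Sox9+ cells. All 6 cartilage chains were at least 2-fold lower in Lgr5- than in Sox9+ cells, with a median log2 ratio of -1.93, and none of the other 5 was 2-fold different, with a median of 0.37. Relative to the Sox9+ library, Col2a1 stood at 42.5% in Lgr5+ and 26.4% in Lgr5- cells, while Plod2 stood at 99.2% and 26.6%, P4ha2 at 78.9% and 32.2%, and Loxl3 at 92.6% and 39.8%. These 3 enzyme genes are those called higher in Lgr5+ over Lgr5-, so nothing is read from the contrast with Col2a1. Ero1l stood at 54.6% in Lgr5+ and 39.0% in Lgr5- cells. It was itself called lower in Lgr5- over Sox9+, so nothing is read from it either. Lox stood at 147.7% in Lgr5+ and 225% in Lgr5- cells. Lox was itself called higher in Lgr5- over Sox9+, so nothing is read from its order. The chains of types I, III and V did not share 1 order. Col1a2 stood at 136.8% and 172.6%, Col3a1 at 92.9% and 113.2%, and Col5a2 at 137.1% and 143.8%. Col1a1, at 155.8% and 129.7%, and Col5a1, at 131.6% and 99.9%, were higher in Lgr5+ cells. For each FPKM of the 11 chains, the 36 genes together had 0.748 FPKM in Lgr5+ cells, 0.82 FPKM in Lgr5- cells and 0.549 FPKM in Sox9+ cells, sums in which P4hb and Serpinh1 weigh most.

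**Figure D4:**
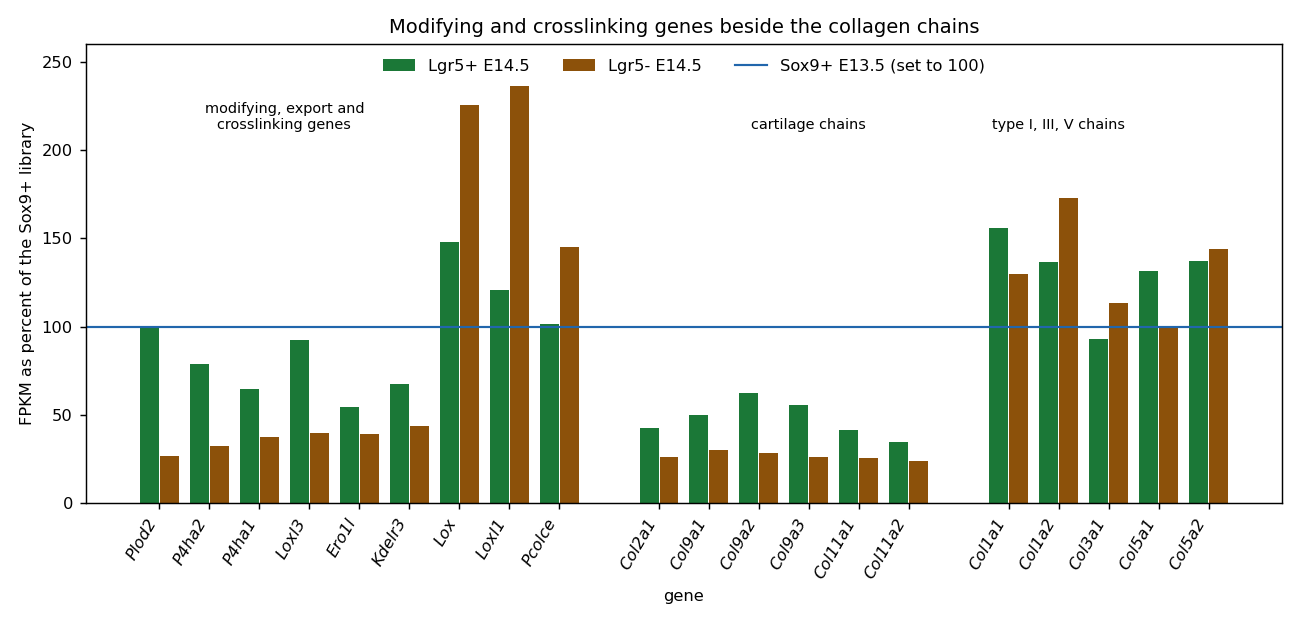
FPKM in the Lgr5+ E14.5 and Lgr5- E14.5 libraries as a percent of the Sox9+ E13.5 library (line at 100) for 9 of the genes, picked after their values were seen, beside cartilage collagen chains and chains of types I, III and V. Plod2 stands at 99.2% in Lgr5+ cells and 26.6% in Lgr5- cells, while Col2a1 stands at 42.5% and 26.4%.

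Genes known to respond to low oxygen were set apart within the list, since cartilage of the embryo has no vessels. The 8 such genes (P4ha1, P4ha2, Plod1, Plod2, Lox, Loxl2, Loxl4 and Ero1l) had a median log2 ratio of -1.19 in Lgr5- over Sox9+. Of these, 5 were at least 2-fold lower (62.5%, against 4.94% of all genes) and 1 (Lox) 2-fold higher (12.5%, against 3.08%). The other 28 had a median of -0.51, with 3 lower (10.7%) and 1 higher (3.57%). The genes were set apart with earlier results of these data known, so nothing is read from the contrast. In Lgr5+ over Lgr5- the medians were 0.51 over 7 measured genes and 0.29 over 28. In Lgr5+ over Sox9+ they were nearly equal, at -0.21 over 8 and -0.23 over 28. A list of 13 hypoxia-responsive genes outside the 36 had medians of 0.75 in Lgr5+ over Lgr5- and 0.27 in Lgr5+ over Sox9+. In the first pair 2 (Bnip3 and Higd1a) were at least 2-fold higher (15.4%, against 3.64% of all genes). In the second 1 (Ddit4) was (7.69%, against 4.33%). In Lgr5- over Sox9+ the list was split. Its median there was -0.82, but 4 genes, Egln1, Ankrd37, Ddit4 and Ndrg1, were above zero. In that pair 4 of the 13, Pgk1, Bnip3, Egln3 and Higd1a, were at least 2-fold lower (30.8%, against 4.94% of all genes). Bnip3 (2.003-fold) and Egln3 (2.013-fold) only just passed the threshold, and their calls under other scalings were not tested. Egln3 was also near the floor, at 0.52 FPKM in Lgr5- cells and 2.06 FPKM in Sox9+ cells. The 12 genes of the unfolded protein response, which raises ER chaperones, had a median of 0.41 in Lgr5+ over Lgr5-, -0.60 in Lgr5+ over Sox9+ and -0.92 in Lgr5- over Sox9+. Under every scaling tried all 12 were lower in both E14.5 libraries than in Sox9+ cells, led by Herpud1 at 40.2 FPKM in Lgr5+ cells, 21.1 FPKM in Lgr5- cells and 99.3 FPKM in Sox9+ cells. The part of oxygen or ER stress in the differences of the 36 genes was not tested.

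Further genes of the same pathway, 43 that are not among the 36, had 40 measured members in each pair. In Lgr5+ over Lgr5- 2 of 40 were at least 2-fold higher (5.0%, against 3.64% of all genes) and none lower (against 1.89%). In Lgr5+ over Sox9+ 1 was higher (2.5%, against 4.33%) and 3 lower (7.5%, against 3.96%). In Lgr5- over Sox9+ 1 was higher (2.5%, against 3.08%) and 5 lower (12.5%, against 4.94%). The median log2 ratios were 0.33, -0.04 and -0.41 in that order of pairs. Leprel1, a prolyl 3-hydroxylase, stood at 9.1 FPKM in Lgr5+ cells, 4 FPKM in Lgr5- cells and 14.3 FPKM in Sox9+ cells, 3.06-fold lower in Lgr5- than in Sox9+ cells and 2.02-fold higher in Lgr5+ than in Lgr5- cells. Hspa5 (BiP), the main ER chaperone and also on the list of the unfolded protein response, stood at 1009 FPKM in Lgr5+ cells, 740.2 FPKM in Lgr5- cells and 1582 FPKM in Sox9+ cells, 2.14-fold lower in Lgr5- than in Sox9+ cells. Its co-factor Sdf2l1 (2.38-fold) and the disulfide isomerase Pdia5 (2.16-fold) were lower in the same pair. Sdf2l1, Hsp90b1, Xbp1 and Hyou1 are also on the list of the unfolded protein response, so the lists are not separate. Kdelr1 was lowest in Lgr5+ cells, at 25.8 FPKM, against 41.2 FPKM in Lgr5- cells and 53.8 FPKM in Sox9+ cells, 2.04-fold lower in Lgr5+ than in Sox9+ cells.

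Of the marker sums for tissues in the digit, the cartilage sum had the order of the 36 genes, lowest in Lgr5- and highest in Sox9+ cells, and those for tendon, interzone, perichondrium and bone, and maturing chondrocytes had other orders. Summed over 6 cartilage markers the level was 2996 FPKM in Lgr5+ cells, 1864 FPKM in Lgr5- cells and 6921 FPKM in Sox9+ cells, with Col2a1 the most abundant and 5 of 6 at least 2-fold lower in Lgr5- than in Sox9+ cells. Matn1, a cartilage matrix protein, went against the sum in 1 pair, at 41.5 FPKM in Lgr5+ cells and 93.8 FPKM in Lgr5- cells, and Sox9 was highest in Lgr5+ cells. Over 6 tendon markers it was 599 FPKM in Lgr5+ cells, 200.6 FPKM in Lgr5- cells and 92.4 FPKM in Sox9+ cells. Over 6 interzone markers it was 882, 146.2 and 177.3 FPKM in the Lgr5+, Lgr5- and Sox9+ libraries. The 6 markers of perichondrium and bone, of which Col1a1 makes up most, summed to 1284, 1072 and 849 FPKM in the same order, and Ibsp was listed at 0 in both E14.5 libraries. Runx2 (2.1, 10.7 and 12.02 FPKM), Sp7 (0.73, 5.07 and 12.95 FPKM) and Alpl (1.2, 5.16 and 16.4 FPKM) of the same list were lowest in Lgr5+ cells, against the order of the sum. Markers of maturing chondrocytes, which include these 3, summed to 31.0, 69.6 and 143.6 FPKM. Of cells outside the skeleton, 7 muscle markers summed to 97.2, 24.8 and 16.6 FPKM. All 7 were at least 2-fold higher in Lgr5+ cells than in either other population. Sums were 40.6, 12.6 and 19.0 FPKM for 6 epidermal markers, and 52.6, 30.9 and 4.8 FPKM for 5 macrophage markers. For 5 endothelial markers they were 5.76, 8.24 and 3.52 FPKM. Between Lgr5+ and Lgr5- cells, epidermal Epcam (3.9 and 8.76 FPKM) went against its sum. So did macrophage Lyz2 (7.48 and 13.7 FPKM) and Fcgr3 (1.88 and 2.97 FPKM), and endothelial Kdr (1.64 and 1.28 FPKM). C1qb alone held 32.5 FPKM of the macrophage sum in Lgr5+ cells. Haemoglobin genes, which mark red blood cells, held 0.036% of all FPKM in Lgr5+ cells, 1.01% in Lgr5- cells and 0.029% in Sox9+ cells. The part of cell makeup in the differences of the 36 genes was not tested.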

How the data were processed

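RNA-seq libraries were compared in 3 pairs, with 1 library per group and no replicates. The authors deposited 1 FPKM value per gene symbol for each library, per the file headers, rounded to 2 decimals. The submitters' processing notes name HISAT2 and the build mm10 (GRCm38). Which program and annotation gave the FPKM values is not given in the sources used here. Per the labels' protocols, cDNA came from a SMARTer kit for low input, a kind that amplifies and does not mark the strand. FPKM are shares of a library, so a few abundant RNAs can shift the others: Rn45s, a ribosomal precursor, held 1.86% of all FPKM in Lgr5+ cells, 6.13% in Lgr5- cells and 6.43% in Sox9+ cells, and haemoglobin genes held 1.01% in Lgr5- cells. The files hold no read counts, so the depth behind a value is unknown and no interval is given.

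Log2 ratios of FPKM + 1 were computed from the deposited values with Python 3.11.15 and pandas 2.3.3, over all genes at 1 FPKM or more in the higher library. Calls were made at 2-fold, and the steps were tested on simulated data. Genes were given with their value in each library if they differed by 1.5-fold in any pair or were the highest or lowest of their role group, and the others were given as well. Genes and lists were chosen with earlier results of these data known. Gene spans and exon overlaps are from GENCODE vM21 (GRCm38), the build of the files. Alternatives were another pseudocount, minimum, threshold and 5 other scalings.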

Additional observations from a re-analysis of the deposited data

How the results depend on the processing

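The count of genes lowest in the Lgr5- library was 23 to 25 of 36 under the 5 other scalings, which were added for this count after seeing the data, against 27.6% to 31.4% of all genes. The other counts of highest and lowest values, those for the Sox9+ library among them, were not repeated under these scalings. Rescaling to TPM moved the median of all genes to 0.21 in Lgr5+ over Sox9+ and 0.11 in Lgr5- over Sox9+, and relative to it the 36 genes lay at -0.29 and -0.57, as they did without rescaling. Under the 5 scalings the calls at 2-fold were the same genes in every pair, except that Loxl1 became 2-fold lower in Lgr5+ over Lgr5- with upper quartile (1 lower in place of none) and with quantile normalization (1). With a pseudocount of 5, Loxl3 was no longer called in Lgr5+ over Lgr5-, at 0.93, only 1 gene (Pcolce2) was lower in Lgr5+ over Sox9+, and in Lgr5- over Sox9+ only 1 (Lox) was higher, while Ero1l, at -0.94, and Loxl4 were no longer among those lower. Loxl4 was left out at a minimum of 10 FPKM, which left 1 gene lower in Lgr5+ over Sox9+. At 1.5-fold the counts were 6 higher and 3 lower in Lgr5+ over Lgr5- (9.47% and 5.96% of all genes), none higher and 7 lower in Lgr5+ over Sox9+ (12.6% and 9.90%), and 2 higher and 18 lower in Lgr5- over Sox9+ (9.50% and 12.8%). Scaled by the median of ratios, Plod2 in Lgr5- over Sox9+ was at -1.87 and Pcolce2 in Lgr5+ over Sox9+ at -1.91, and with a pseudocount of 0.1 they were at -1.91 and -1.95, with Loxl4 in Lgr5+ over Sox9+ at -2.49. Of 749 single-gene values under the alternatives, 740 kept their side of 2-fold and moved by less than 1.5-fold, and none that was called changed sign. Among uncalled values, the sign of Plod2, Plod1, P4hb, Sec13, Sec23a and others near zero in Lgr5+ over Sox9+ flipped with the scaling. No paired analysis was possible because each group has 1 library.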

Other observations

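The N-propeptidases, which trim the other end of fibrillar procollagens, did not share 1 pattern. Adamts2, a main enzyme for type I, stood at 7.09 FPKM in Lgr5+ cells, 9.58 FPKM in Lgr5- cells and 2.54 FPKM in Sox9+ cells. It was 2.29-fold higher in Lgr5+ and 2.99-fold higher in Lgr5- than in Sox9+ cells. Adamts3 was highest in Sox9+ cells, at 2.9 FPKM in Lgr5+ cells, 4.01 FPKM in Lgr5- cells and 7.53 FPKM in Sox9+ cells. Adamts14 was highest in Lgr5+ cells, at 7.81 FPKM, against 2.32 FPKM in Lgr5- cells and 3.42 FPKM in Sox9+ cells, and was 2.65-fold higher in Lgr5+ than in Lgr5- cells. The collagen galactosyltransferases, which add the first sugar to hydroxylysine, also differed from each other. Glt25d2 stood at 5.43 FPKM in Lgr5+ cells, 3.67 FPKM in Lgr5- cells and 18.5 FPKM in Sox9+ cells, 3.03-fold and 4.17-fold lower in the Lgr5+ and Lgr5- than in Sox9+ cells. Glt25d1 stood at 48.1 FPKM in Lgr5+ cells, 38.5 FPKM in Lgr5- cells and 53.0 FPKM in Sox9+ cells, within 2-fold in every pair.

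As a single ratio picked after the values were seen, Lox and Loxl1 together had 0.342 FPKM for each FPKM of Plod2 in Lgr5+ cells, 2.12 in Lgr5- cells and 0.245 in Sox9+ cells. Lox and Loxl1 were called higher and Plod2 lower in Lgr5- over Sox9+, so nothing is read from the order of this ratio. Cartilage chains were 64.9% of the FPKM of the 11 chains in Lgr5+ cells, 52.6% in Lgr5- cells and 84.7% in Sox9+ cells.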
